A study of Mus musculus with 3 samples.

Results

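The 10 genes Atf4, Atf6, Ddit3, Xbp1, Hspa5, Ern1, Eif2ak3, Ppp1r15a, Trib3 and Herpud1 belong to the unfolded protein response and the integrated stress response, and they were chosen by name from 55536 annotated genes. All 10 matched a gene identifier in the tables. RNA had been taken from the cytosolic fraction of mouse C57BL/6J bone-marrow-derived macrophages and sequenced as total RNA after ribosomal RNA depletion. The cells had received lipid A at 100 ng/ml for 12 hours, then 12 hours without it, and then lipid A at 100 ng/ml again for 60 minutes. Lipid A is the membrane anchor of bacterial lipopolysaccharide that the receptor Tlr4 senses, and an earlier exposure changes how macrophages answer a later one. There was 1 group of 3 libraries, each from 1 µg of RNA, and untreated and once-stimulated cells were not analysed here. The labels number them as biological replicates under 1 donor entry, and nothing in them says that they are different animals or separate cultures. The p-values therefore measure only the spread between these samples, which may be technical.

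The unfolded protein response is switched on when unfolded proteins accumulate in the endoplasmic reticulum (ER). Its sensors are Ern1 (Ire1), Eif2ak3 (Perk) and Atf6. Ern1 is a nuclease that cuts a short intron out of Xbp1 mRNA in the cytosol, Eif2ak3 phosphorylates the translation factor eIF2, and Atf6 is a membrane-bound transcription factor that is cut free in the Golgi. Phosphorylated eIF2 is also made by the kinases Eif2ak1, Eif2ak2 and Eif2ak4, and all of these signals meet in Atf4, whose translation rises when general translation falls. That shared arm is the integrated stress response, and Ddit3 (Chop), Trib3 and Ppp1r15a (Gadd34) lie downstream of it. Most of this control acts on protein, phosphorylation and translation, none of which RNA levels measure.

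Expected counts on genes came to 50807046, 53364168 and 46546422 in replicates 1, 2 and 3, so that 3 counts equalled 0.0562 to 0.0645 CPM (counts scaled to a fixed library total). All 12 macrophage markers stood above 1 TPM (transcript abundance per length, scaled to a fixed sum in each library), against 3 of 9 neutrophil, 1 of 7 B and plasma cell, and none of 8 T and NK cell, 6 dendritic cell, 6 stromal and 5 erythroid markers. Of these markers, 3 stromal ones and the dendritic cell marker Batf3 (mean 1.42 TPM) were placed neither above nor below 1 TPM. The libraries were not alike. The nuclear long RNA Malat1 was listed at 112, 90.6 and 452 TPM in replicates 1, 2 and 3, Neat1 at 10.9, 7.1 and 29.7 TPM, and summed stromal markers at 0.09, 7.08 and 3.15 TPM. On counts scaled by edgeR's TMM method, interferon-stimulated genes were highest in replicate 1 in 10 of 10 cases, where 4422 of 13074 genes were. In 13 of 15 inflammatory and early response genes replicate 3 was lowest on the same scale (background 36.1%). Their part in the results below was not tested. Nuclear protein-coding genes took up 34.5, 29 and 27.5% of all TPM in replicates 1, 2 and 3. TPM therefore runs higher in replicate 1 for most genes, with a median shift over all genes of 0.12, −0.04 and −0.09 on the log2 scale. Comparisons between libraries below use counts scaled by edgeR's TMM method, and levels use TPM.

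All 10 genes were expressed above 1 TPM in these macrophages, by limma's test of log2(TPM + 1) with Benjamini-Hochberg adjustment over 20685 genes (adjusted p from 1.6e-08 for Hspa5 to 0.011 for Eif2ak3). Over all genes tested, 44.5% stood above that level. The median of the 10 gene means was 22.6 TPM, and the median over all genes tested was 0.68 TPM. The levels spread over more than 2 orders of magnitude. Ppp1r15a, Hspa5, Ddit3 and Atf4 formed an upper group with means of 102 TPM or more, and the other 6 had means of 31.0 TPM or less. In the second set of deposited tables, made directly from the reads, 9 of the 10 stood above 1 TPM (background 27.3%).

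**Figure D1:**
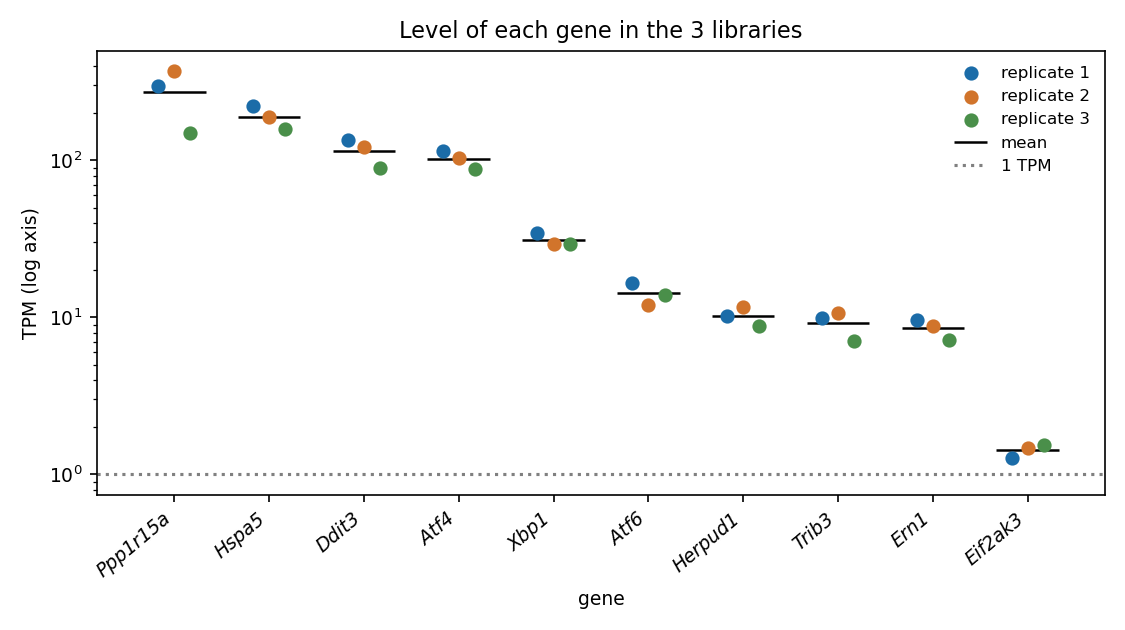
TPM of each of the 10 genes (log axis) in the 3 libraries (points) with the mean (bar), in order of the mean. Ppp1r15a has the highest mean at 273 TPM and the widest spread, and Eif2ak3 the lowest at 1.43 TPM, close to the dotted line at 1 TPM.

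Among the sensors, Atf6 (chromosome 1, 170704674 to 170867771, minus strand, mm10) was listed at 16.6, 12.0 and 13.8 TPM in replicates 1, 2 and 3, with a mean of 14.2 ± 2.31 (SD over the 3 libraries, as below). Ern1 (chromosome 11, 106394650 to 106487852, minus strand) was listed at 9.58, 8.85 and 7.19 TPM, with a mean of 8.54 ± 1.22. Eif2ak3 (chromosome 6, 70844515 to 70905245, plus strand) was listed at 1.27, 1.48 and 1.54 TPM, with a mean of 1.43 ± 0.142. No library overlapped between any pair of these sensors: the Atf6 to Ern1 ratio was 1.73, 1.36 and 1.92, and the Ern1 to Eif2ak3 ratio was 7.54, 5.98 and 4.67. Eif2ak3 rested on 406, 566 and 549 counts. It was the member whose call depended on the processing. Without replicate 2 or without replicate 3 it was no longer placed above 1 TPM (limma adjusted p = 0.061 and 0.057). In the second tables it was placed below that level at 0.646 ± 0.128 TPM.

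Relatives of the sensors gave a scale for these levels. Of the 4 kinases that phosphorylate eIF2, the double-stranded RNA sensor Eif2ak2 (Pkr), itself an interferon-stimulated gene, averaged 34.7 ± 4.18 TPM, the heme-regulated Eif2ak1 8.68 ± 0.719, and the amino acid sensor Eif2ak4 (Gcn2) 2.36 ± 0.0529. Eif2ak3 was the lowest of the 4, and neighbours in this order did not overlap in any library. Eif2ak2 exceeded Eif2ak3 31.1, 21.5 and 21.3-fold in replicates 1, 2 and 3. The second set of tables gave the same order, with a mean ratio of 25.2. Atf6b, the close relative of Atf6, stood above it in all 3 libraries at 1.32 ± 0.05 times its TPM, whereas Ern2, the Ern1 relative of mucosal epithelium, was listed at 0 in all 3.

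Among the transcription factors, Atf4 (chromosome 15, 80255184 to 80257541, plus strand) was listed at 115, 103 and 88.6 TPM, with a mean of 102 ± 13.0. Ddit3 (chromosome 10, 127290774 to 127296288, plus strand), a C/EBP-family factor induced through Atf4 and linked to cell death under prolonged stress, was listed at 135, 122 and 89.0 TPM, with a mean of 115 ± 23.8. Their ranges overlapped, and the Ddit3 to Atf4 ratio was 1.18, 1.19 and 1.0. A second gene entry also named Ddit3, which overlaps it, received at most 0.74 counts. Xbp1 (chromosome 11, 5520659 to 5525893, plus strand), the factor whose mRNA Ern1 cuts, was listed at 34.3, 29.3 and 29.4 TPM, with a mean of 31.0 ± 2.85. It lay below Atf4 without overlap, with a ratio of Atf4 to Xbp1 of 3.29 ± 0.247.

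The Xbp1 intron that Ern1 removes is shown because these tables cannot report on it. A search of the GENCODE M21 transcripts found the 26-base stretch in the coding exon of Xbp1-201 at chromosome 11, 5524282 to 5524307, plus strand. It is given here with 2 flanking bases on each side and the removed bases in capitals.
Xbp1 intron: agCACTCAGACTATGTGCACCTCTGCAGca
The coding transcripts Xbp1-201, Xbp1-203 and Xbp1-204 all contain these bases, and the retained-intron transcript Xbp1-202 does not. None of the 4 annotated transcripts holds the joined sequence of the spliced form. Xbp1-201 held 99.3, 98.5 and 98.2% of the gene's TPM, a share that says nothing about how much of it had been cut by Ern1. Spliced and unspliced Xbp1 were therefore not told apart here, and whether reads over the spliced join were counted is not known.

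Among the targets, Hspa5 (BiP, the main chaperone of the ER, which also binds the sensors) was among the most abundant mRNAs. Hspa5 (chromosome 2, 34771970 to 34777547, plus strand) was listed at 222, 188 and 159 TPM, with a mean of 189.7 ± 31.3, and stood at the 98.8th percentile of genes with TPM above 0. It lay above Ddit3 in every library, at 1.64, 1.54 and 1.79 times its TPM. Herpud1 (chromosome 8, 94386438 to 94395377, plus strand), a membrane protein of ER-associated degradation, was listed at 10.2, 11.6 and 8.8 TPM, with a mean of 10.2 ± 1.4. Both are textbook targets of the unfolded protein response, yet Hspa5 exceeded Herpud1 18.7 ± 2.85-fold.

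The feedback genes lay far apart. Ppp1r15a, which brings protein phosphatase 1 to eIF2 and so restores translation, was listed at 299, 371 and 149.5 TPM, with a mean of 273 ± 113, the highest mean of the 10. Ppp1r15a (chromosome 7, 45522916 to 45526268, minus strand) was above Hspa5 in replicates 1 and 2 and below it in replicate 3. In the second tables it averaged 89.8 ± 43.4 TPM against 91.4 ± 11.4 for Hspa5, and was the higher in 1 library, so the order of these 2 genes differed between the table sets. Its constitutive relative Ppp1r15b averaged 26.9 ± 5.13 TPM. The ratio of Ppp1r15a to Ppp1r15b was 9.15, 16.2 and 5.96 in replicates 1, 2 and 3, and 7.38, 12.5 and 4.37 in the second tables. Trib3, a pseudokinase that binds Atf4 and Ddit3 and damps their activity, was far lower. Trib3 (chromosome 2, 152337422 to 152344032, minus strand) was listed at 9.95, 10.7 and 7.12 TPM, with a mean of 9.24 ± 1.87, which is 0.0804 ± 0.00688 of the Ddit3 level. Herpud1 overlapped Trib3 and Trib3 overlapped Ern1, while Xbp1 and Atf6 overlapped neither neighbour in the order.

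Between the 3 libraries, 9 of the 10 genes varied by more than counting noise, by a chi-square test of rounded expected counts with TMM scaling and Benjamini-Hochberg adjustment. That share has to be read against the background: 67.0% of the 13075 genes with at least 30 counts did so. Xbp1 was the exception (adjusted p = 0.052, highest over lowest library 1.05-fold). In the second tables all 10 varied (background 70.2%). Most of the variation was small. The median ratio of the highest to the lowest library was 1.28 over the 10 genes, and 1.24 over all genes tested. Over genes with at least 300 counts, as all 10 had, it was 1.2. The background shares above also include genes with fewer counts, in which the test detects less.

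The library that stood lowest was most often replicate 3. On TMM-scaled counts 7 of the 10 genes (Atf4, Ddit3, Hspa5, Ern1, Ppp1r15a, Trib3 and Herpud1) were lowest there, where 36.1% of all genes were, and all 7 varied beyond noise, where 25% of all genes both varied and were lowest there. The count stayed at 7 with size factors of DESeq2 (background 35.7%) and was 6 with TPM rescaled over coding genes (background 21.8%). It was 5 with library totals (background 26.9%) and 8 by the second tables (background 43.3%). Hspa5 and Herpud1 were lowest in replicate 1 with library totals, and Herpud1 also with rescaled TPM. Replicate 2 was highest for 6 of the 10 (background 36.0%). Among these 6, replicates 1 and 2 were nearly level in Atf4 (264 and 264 CPM), Ddit3 (137 and 138) and Hspa5 (677 and 682). The count of genes highest in replicate 2 was 6 with size factors of DESeq2 (background 36.3%). It was 7 with library totals (39.1%), with rescaled TPM (39.5%) and by the second tables (38.8%). On TPM as deposited it was 3 (background 23.8%), and replicate 1 was highest for 6 (background 60.1%). Without replicate 3 the number of genes that varied fell from 9 to 5, against 51.3% of all genes, and Atf4, Ddit3, Hspa5 and Ern1 were no longer called. It was 8 both without replicate 1 (background 52.3%) and without replicate 2 (background 49.0%), where Eif2ak3 and Herpud1 respectively were lost. The same library had the lowest inflammatory and early response genes and the highest Malat1, and the part of these in the stress gene values was not tested. In bulk RNA, fewer cells with a transcript and less of it per cell cannot be told apart.

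Ppp1r15a carried the largest swing. Its scaled level was 614, 875 and 365 CPM in replicates 1, 2 and 3, so replicate 2 was 2.4-fold above replicate 3, a ratio at the 98.3rd percentile of genes with at least 300 counts. Trib3 followed at 27.1, 32.7 and 22 CPM, or 1.48-fold. Ddit3 was level in replicates 1 and 2 and lower in replicate 3, at 137, 138 and 102 CPM, or 1.36-fold. The same shape was seen in Atf4 at a smaller size, with 264, 264 and 232 CPM, or 1.14-fold. Herpud1 differed by being high in replicate 2 alone, at 26.8, 34.1 and 25.9 CPM, or 1.32-fold. Hspa5 was nearly flat at 677, 682 and 638 CPM, or 1.07-fold, although its depth made that difference larger than counting noise.

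Among the sensors the scaled levels moved in different ways. Ern1 was lowest in replicate 3 at 89.9, 89.2 and 75.6 CPM. Atf6 was lowest in replicate 2, at 179.0, 144 and 169.8 CPM. Eif2ak3 was lowest in replicate 1, at 8.28, 10.5 and 11.5 CPM, and highest in replicate 3. That is 1.39-fold, and in the other direction from Ddit3. Its ratio was larger than that of Ddit3 with TMM, size factors of DESeq2, library totals and TPM rescaled over coding genes. The order was reversed in the second tables, at 1.33 for Eif2ak3 against 1.44 for Ddit3. On TPM as deposited it was also reversed, at 1.21 against 1.52. Without replicate 1 Eif2ak3 was not called as varying.

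Other pathway genes, taken from 5 lists by role, put the 10 genes in context. Of 76 listed genes, 68 stood above 1 TPM and 5 below, where 44.5% of all genes stood above. ER chaperones and folding enzymes were all expressed (15 of 15, median 48.3 TPM), led by the lectin chaperone Calr at 206, 206 and 231 TPM, the proline isomerase Ppib at 109.7 ± 17.2 and the Hsp90 of the ER, Hsp90b1, at 107 ± 3.71. The lowest, the secreted ER protein Creld2, reached 7.88 ± 0.531 TPM. Calr and Hspa5 were close, with a Calr to Hspa5 ratio of 0.93, 1.09 and 1.45. In ER-associated degradation 14 of 15 genes stood above 1 TPM, led by the ATPase Vcp at 57.1 ± 0.864, the lectin Os9 at 42.5 ± 3.38 and Selenos at 29.8 ± 2.17. The exception was the derlin Derl3, of the channel that moves misfolded proteins out of the ER, at 0.0633 ± 0.0379 TPM, while its relative Derl2 was at 22 ± 4.66. All 14 genes of the eIF2 group passed, from the phosphatase catalytic subunit Ppp1ca (84.3 ± 11.0 TPM) and the eIF2 beta subunit Eif2s2 (39.1 ± 5.15) down to the eIF2B subunit Eif2b3 (2.16 ± 0.457).

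Among known Atf4 targets and partners 16 of 19 stood above 1 TPM, and 2 below (background above it 44.5%). The highest were the stress cytokine Gdf15 at 216, 188 and 117 TPM, the amino acid transporter chain Slc3a2 at 144 ± 7.71 and the transcription factor Atf3 at 176, 144 and 81.1. Atf3 lay close to Ddit3, with a ratio of 1.3, 1.18 and 0.911. Vldlr was lowest at 0.0333 ± 0.0306 TPM. In the list for the machinery of the Atf6 and Ire1 branches, which also holds the Trib3 relatives Trib1 and Trib2, 9 of 13 stood above 1 TPM. Tmbim6, an inhibitor of cell death in the ER membrane, led at 263, 172 and 207 TPM, followed by Atf6b at 18.6 ± 2.42 and Rtcb, the ligase that rejoins cut Xbp1, at 18.3 ± 1.32. Trib2 averaged 0.00333 ± 0.00577 TPM, with 2 libraries listed at 0, and the related Trib1 stood at 1.52 ± 0.126 times Trib3.

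**Figure D2:**
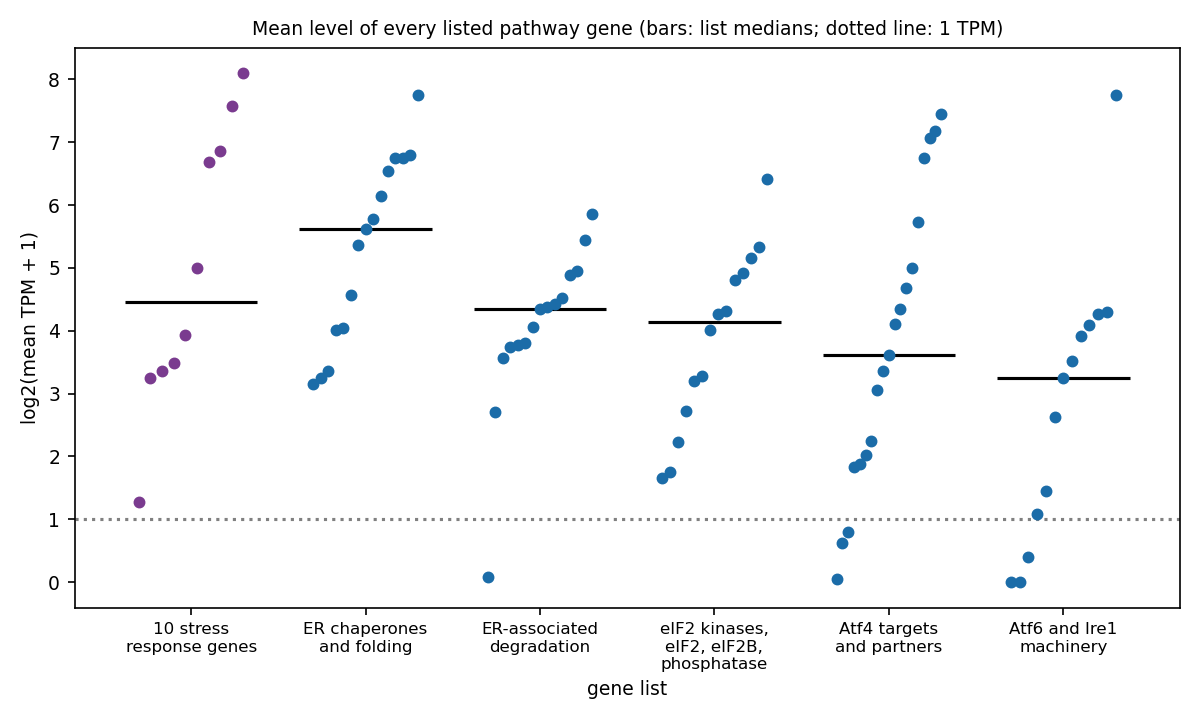
Mean level of each listed gene, as log2(mean TPM + 1), for the 10 stress response genes and 5 lists of other pathway genes, each sorted by level, with the list median as a bar and 1 TPM as a dotted line. ER chaperones have the highest list median (48.3 TPM), and the points at the bottom are Derl3, Vldlr, Trib2 and Ern2 among others.

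The lists varied between libraries in different ways. Among the 15 chaperones 14 varied beyond noise (background 67.0%). Of the 15, 10 were lowest in replicate 1 (background 30.2%) and 10 highest in replicate 3 (background 30.2%), with a median deviation of −0.07, 0.00 and 0.08 on the TMM log2 scale in replicates 1, 2 and 3. Hsp90b1 and Calr were highest in replicate 3, by 1.22 and 1.19-fold over replicate 1. The Hspa5 co-chaperone Dnajb11, with the largest spread of the list, was instead highest in replicate 1, 1.25-fold over replicate 2. Among 18 Atf4 targets and partners with enough counts 16 varied (background 67.0%). Of the 18, 9 were lowest in replicate 3 (background 36.1%) and 7 in replicate 1 (background 30.2%). Replicate 2 was highest for 11 of them (background 36.0%), and the median deviations were −0.06, 0.19 and −0.19. In the eIF2 group 7 of 14 genes were lowest in replicate 3 (background 36.1%), with median deviations of 0.04, 0.03 and −0.04. In ER-associated degradation 7 of 14 genes with enough counts were lowest in replicate 2, where 4410 of 13074 genes were. In the Atf6 and Ire1 list 4 of 11 were lowest in replicate 2 and 4 in replicate 3. For the 10 stress response genes the medians were 0.05, 0.07 and −0.14, and for inflammatory and early response genes 0.06, 0.41 and −0.59. Over all genes tested, the medians were 0.01, 0.01 and −0.02.

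Atf3, Gdf15 and Nck1 showed the same low replicate 3. Slc3a2, also among the highest of the Atf4 list, did not, at 360.4, 359.9 and 386 CPM in replicates 1, 2 and 3 on the TMM scale. Atf3 and Gdf15 were 1.9 and 1.63-fold higher in replicate 1 than in replicate 3. Nck1, an adaptor that limits eIF2 phosphorylation, was at 42.7, 49.9 and 26.8 CPM in replicates 1, 2 and 3 on the TMM scale, and Trib1 at 103, 111 and 71.5 CPM. Differences between lists were not tested. In 3 libraries of 1 group a likeness of pattern cannot be ranked, so no gene is named as the most alike.

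**Figure D3:**
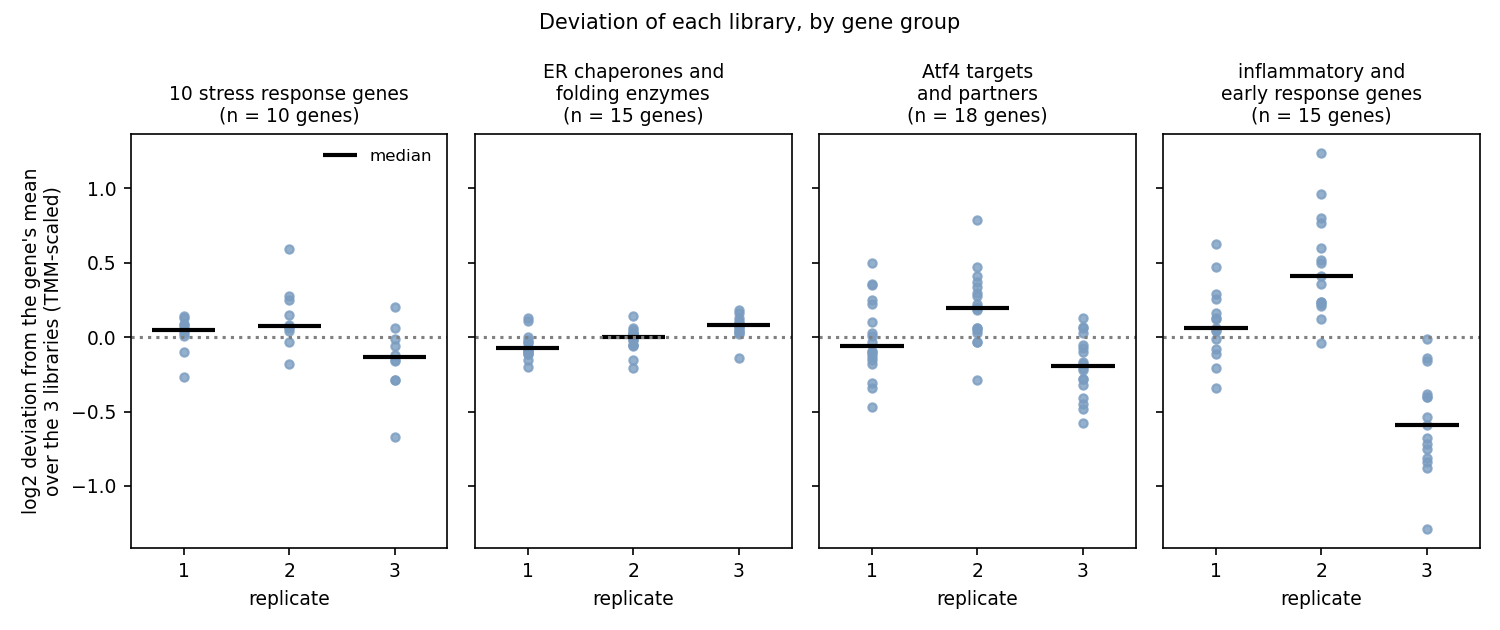
Log2 deviation of each gene from its own mean over the 3 libraries, on TMM-scaled counts, with the list median as a bar, for the 10 stress response genes, ER chaperones, Atf4 targets and inflammatory and early response genes. The medians in replicate 3 are −0.14, 0.08, −0.19 and −0.59.

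Promoter sequences are shown for the genes whose promoters hold a known stress element, since Hspa5 and Herpud1 are the standard examples. RefSeq windows of build GRCm38.p6, from 250 bases before to 50 after the start, covered 9 of the 10 genes, all but Atf6. Both strands were searched for the ER stress element (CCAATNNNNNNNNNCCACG), ER stress element II (ATTGG and CCACG with 1 base of any kind between them), which shares the CCACG end with it, and the composite site of C/EBP and Atf factors (TGATGCAA). Over 32851 promoters 0.119, 0.0365 and 0.895% held them. Each window below has 30 bases, reads 5′ to 3′ on the gene's strand and has the match in capitals.
Hspa5, ER stress element: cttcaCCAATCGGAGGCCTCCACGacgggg
Herpud1, ER stress element II: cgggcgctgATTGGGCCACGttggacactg
Herpud1, composite site: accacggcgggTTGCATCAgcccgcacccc
Calr, ER stress element: caacgCGTGGTCGACCCTCATTGGcccata
Hsp90b1, ER stress element: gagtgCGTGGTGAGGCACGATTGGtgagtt
Atf3, composite site: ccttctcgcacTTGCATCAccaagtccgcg
The Hspa5 window lies at chr2:34772020-34772049, with the element 65 to 47 bases before the RefSeq start, inside the first exon of the longer annotated transcript Hspa5-201. The Herpud1 windows lie at chr8:94386368-94386397, with element II 52 to 42 bases before the start, and at chr8:94386306-94386335, with the composite site 112 to 105 bases before it on the other strand. These matches do not overlap. The Calr (chr8:84847069-84847098), Hsp90b1 (chr10:86705527-86705556) and Atf3 (chr1:191183425-191183454) windows are on the minus strand, and their capitals are the element read on the opposite strand.

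No other member held these letters in its window. Among the lists with a promoter entry, the ER stress element was found for 6 of 13 chaperones and 2 of 11 degradation genes, and the composite site for 6 of 19 Atf4 targets. ER stress element II was found for 1 chaperone, Dnajb11. Hsp90b1 held a further ER stress element, at −212 to −194 from the start, which is not shown above. Genes with a match spanned the range of levels. Derl3, at 0.0633 TPM, held the element, as did Calr at 214 ± 14.6 TPM. Vldlr, at 0.0333 TPM, held the composite site, as did Atf3. A match describes the letters and was not tested as a bound site.

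At the transcript level, the tables listed 40 transcripts for the 10 genes, and in 7 genes 1 transcript held at least 90% of the gene's TPM. The share of all genes that do so was not taken, so this cannot be read as particular to these genes. Atf6-201, Atf4-201, Xbp1-201, Trib3-201, Eif2ak3-201, Ddit3-201 and Herpud1-205 held 90.3% (Herpud1-205) to 99.9% (Atf6-201) on average. In the second tables Herpud1-205 held 89.2%. Ern1 was spread over more entries, with Ern1-201 at 86.3% ± 1.58 and the shorter Ern1-204 at 9.31% ± 0.941. Hspa5 and Ppp1r15a were the other exceptions, and in both a short transcript took a large share.

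Ppp1r15a-203 (389 bases) held 39.8, 37.9 and 36.7% of the gene's TPM in replicates 1, 2 and 3, beside 61.7% ± 1.51 for the full-length Ppp1r15a-201 (2333 bases). It held only 4.79% of the gene's expected counts on average, since TPM divides by an effective length that was 172, 181 and 164 bases. In the second tables it held 19.7, 7.68 and 2.0% of TPM. Its average share was 9.79% there and 38.1% in the first tables. Counts gave Ppp1r15a-201 94.9%, so the high TPM of Ppp1r15a rests in part on this short entry: Ppp1r15a-201 alone was at 179.6, 230.2 and 94.2 TPM. The transcripts part after the same exon end, at chromosome 7, 45523739, minus strand, and Ppp1r15a-203 joins 49 coding bases further on. The 30 bases over each junction, with the downstream exon in capitals, show the difference.
Ppp1r15a-201: ctaaaagctcggaagGTACACTTCGCTGAG
Ppp1r15a-203: ctaaaagctcggaagGACCAGCCCAAGCTG

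Hspa5-204, a transcript of 477 bases annotated for nonsense-mediated decay, held 21.2, 17.3 and 10.8% of Hspa5 TPM and 2.03% of its counts on average. Here the second tables gave a share of the same order, 25.6, 25 and 18.6%, lowest in replicate 3 in both sets. It uses an exon end 7 bases downstream of that of Hspa5-202 and an exon start 166 bases further on, at chromosome 2, 34772725. A further junction upstream, from 34772146 to 34772229, is also in Hspa5-204 and not in Hspa5-202. The main coding transcript Hspa5-202 held 74.1% ± 1.97, and the longer Hspa5-201 5.29, 9.99 and 12.7%. Hspa5-202 alone was at 163, 136 and 122 TPM.

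**Figure D4:**
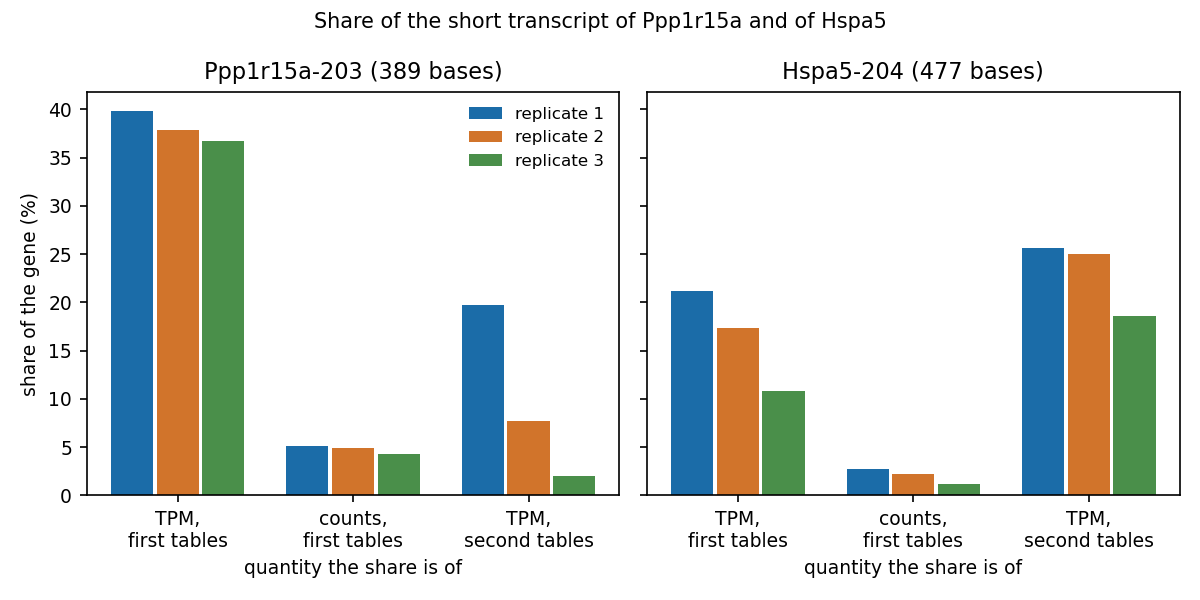
Share of the short transcripts Ppp1r15a-203 and Hspa5-204 in their gene, in percent, per library, as TPM and as counts in the first tables and as TPM in the second tables. Ppp1r15a-203 falls from 39.8% to 19.7% between the table sets in replicate 1 and from 36.7% to 2.0% in replicate 3, while Hspa5-204 keeps a share of 10.8% or more in both.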

How the data were processed

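Expected counts and TPM per gene, and the percent of each gene in each transcript, were deposited by the authors for 3 libraries, on mm10 with GENCODE M21 per the text deposited with them. TPM was scaled over all entries by the authors, per the file headers. A second set of transcript tables, deposited with estimated counts and TPM made directly from the reads, was summed to genes. Not given in the sources used here are the aligner, the quantifier and whether strand was used, so overlapping and antisense reads cannot be told apart.

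The level test was an intercept-only limma model (limma 3.58.1, R 4.3.3) of log2(TPM + 1) against 1 TPM. The pseudocount of 1 understates differences of low genes. For variation, expected counts were rounded, scaled with TMM (edgeR 4.0.16) and compared across libraries by chi-square (2 degrees of freedom), where a gene had at least 30 counts in sum. Both scripts were tested on simulated data. A Benjamini-Hochberg adjusted p under 0.05 was called. The counts on entries that are not genes (0.378, 0.0931 and 0.0772%) were left out. Count noise covers counting error only.

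Named genes were the 10 members and, for each of 5 lists, the 3 highest, the lowest and the gene with the largest SD of log2(TPM + 1) at a mean of at least 1 TPM, with Malat1 and Neat1. Eif2ak1, Eif2ak4, Ppp1r15b and Ern2 were added as relatives of members after their values were seen. Members, lists and tests were chosen with earlier results of these data known. Promoters came from RefSeq and transcripts from GENCODE M21. Alternatives were a pseudocount of 0.1, a level of 5 TPM, a mean count of at least 10, other count minimums, DESeq2 1.42.0 size factors, library totals, TPM rescaled over coding genes, the second tables, and leaving out each replicate.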

Additional observations from a re-analysis of the deposited data

How the results depend on the processing

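Under the alternatives that kept the level of 1 TPM, 9 to 10 of the 10 genes stood above it, with Eif2ak3 the one lost, and the 5 lists gave 62 to 71 of 76 against 68. At a level of 5 TPM, 9 of the 10 genes and 57 of the 76 stood above. Shares of all genes above the level were taken only at 1 TPM, 44.5% as reported and 27.3% in the second tables. The counts under other settings have no background here. Leaving out each replicate in turn gave 9 to 10 genes above 1 TPM and 5 to 8 genes varying, the lowest without replicate 3. Other settings gave 9 or 10 varying. Mean TPM was 0.329 (Ppp1r15a) to 0.482 (Hspa5) times as high in the second tables, and higher for all 10 genes when rescaled over coding genes, so a TPM is a level within 1 table set only. The share of Ppp1r15a-203 was 9.79% in the second tables against 38.1%. The cause was not tested. No paired analysis was possible because there is 1 group. With 3 libraries of 1 group no response to lipid A can be given, and Eif2ak3, at 406 to 566 counts, has the largest counting error of the 10.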
